A study of Mus musculus with 8 samples.

Results

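The genes described here supply and regenerate the cell's thiol antioxidants under the transcription factor NRF2. They were chosen by name, with earlier results of these data known: Slc7a11, Gclm, Gclc, Gsr, Srxn1, Txnrd1, Txn1, Prdx1, Nqo1 and Nfe2l2. Their counts and medians below are therefore no independent excess over the all-feature values beside them. Of these 10 members 9 had probes on the array, 16 probes in all, among 16593 named genes, and Gsr, which encodes glutathione reductase, was not analysed here. Levels came from mouse bone marrow macrophages of strain C57BL/6, grown from marrow with L929 conditioned medium as a source of M-CSF and used on day 8 of culture. There were 4 groups of 2 arrays each: unstimulated cells, cells given recombinant IFNγ at 10 ng/ml, cells given sheep red blood cells coated with IgG2a at 10 per macrophage (called opsonised cells below), and cells given both, each stimulus for 6 h. The labels do not say whether replicates came from separate mice or dishes, and p-values then measure only how far these arrays spread, which may be technical. The culture is a bulk one, in which fewer cells of a type and less RNA per cell cannot be told apart.

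NRF2, the product of Nfe2l2, is held in the cytosol and handed to degradation by KEAP1, whose cysteines react with oxidants and electrophiles. When KEAP1 is modified, NRF2 enters the nucleus, pairs with a small MAF protein and binds antioxidant response elements beside its target genes. One arm of the programme makes glutathione: Slc7a11 encodes the cystine importer xCT, and Gclc and Gclm encode the catalytic and modifier subunits of glutamate-cysteine ligase, the rate-limiting enzyme. The other arm is thioredoxin-linked: Txn1 encodes thioredoxin, Txnrd1 its NADPH-dependent reductase, Prdx1 a peroxiredoxin that reduces peroxides, and Srxn1 the sulfiredoxin that rescues over-oxidised peroxiredoxin. Nqo1 encodes a quinone reductase and is a standard NRF2 reporter gene. A macrophage that digests red cells takes in heme and iron, both pro-oxidants, and macrophages activated by IFNγ are known for making reactive oxygen and nitrogen species.

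Within a group the 2 arrays had a correlation of 0.992 to 0.994, and between groups the values ran from 0.952 to 0.984. A probe was taken as above background when its intensity passed 204.9, a floor derived from the dim side of the distribution, and 8857 features were tested. Irf1, the IFNγ-induced transcription factor gene, stood at 2669 unstimulated and 25710 with IFNγ, and Tfrc, the transferrin receptor gene that iron lowers, at 1599 unstimulated and 409.4 with opsonised cells. All 7 macrophage markers with a probe were above the floor. Of 6 erythroid markers with a probe 0 were. Of 9 neutrophil markers 5 were above the floor (S100a8, S100a9, Ltf, Ngp and Elane), while Mpo, Camp, Cxcr2 and Mmp8 were not. Their summed intensity was 3806 to 3895 unstimulated, 3861 to 4178 after IFNγ, 3218 to 3791 after opsonised cells and 4538 to 4637 after both, and its part in the results was not tested. T and NK cell markers passed in 0 of 6 cases, B cell markers in 2 of 5, dendritic cell markers in 1 of 6, mast cell and basophil markers in 1 of 5 and fibroblast markers in 1 of 6.

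Opsonised cells raised 6 of the 8 members that could be tested and lowered 0. The increases were of very unequal size: about 10-fold for the cystine importer and 8- to 9-fold for the ligase modifier subunit and sulfiredoxin, but under 1.6-fold for the other 3. Over all tested features 12.9% were called in this comparison (6.38% higher, 6.56% lower), and the median log2 change was 0.54 for the tested members against -0.02 for all features. Slc7a11 and Txnrd1 were above the floor on both arrays only in the 2 groups with opsonised cells, so these genes entered the test through the groups where they were high, and the count describes the tested members only.

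Slc7a11 had intensities of 225.6 and 204.0 in unstimulated cells and 2137.1 and 2199.9 with opsonised cells. The unstimulated arrays lie at the floor and those with opsonised cells far above it, without overlap. The log2 change was 3.34 ± 0.12 (SE, 2 arrays per group; 10.1-fold; limma adjusted p = 1.08e-15), and since the low side is at background the fold is understated. Gclm read 997.4 and 1074.3 unstimulated against 9245.3 and 9038.6 with opsonised cells, a log2 change of 3.14 ± 0.12 (8.83-fold; limma adjusted p = 4.85e-15). All 4 of these arrays were far above background. Its partner Gclc has 1 probe, which was not above the floor on both arrays of any group and was therefore not tested. The Gclc probe read 184.7 and 199.0 unstimulated, 191.0 and 189.1 after IFNγ, 233.5 and 202.7 after opsonised cells and 192.9 and 179.4 after both. The catalytic subunit's response was thus not detectable with this probe, whereas the modifier subunit's was large. With no filter on dim probes the Gclc change with opsonised cells was 0.18 ± 0.10 (limma adjusted p = 0.466).

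**Figure D1:**
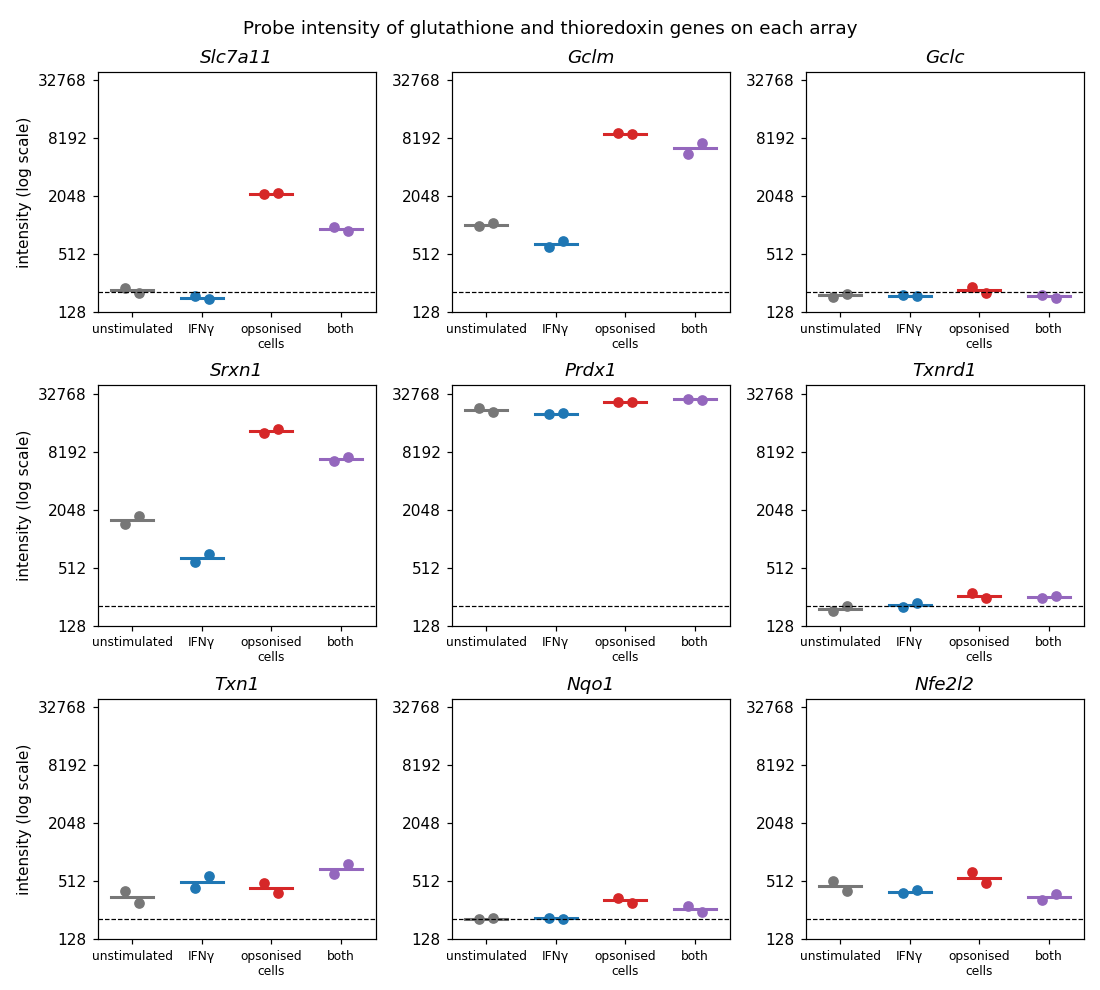
Intensity of the 9 genes with a probe on each of the 8 arrays (log axis), for the probe used for each gene; points are arrays, bars are group means of log values and the dashed line is the background floor of 204.9. Slc7a11, Gclm and Srxn1 stand high in the 2 groups with opsonised cells and lower with both stimuli than with opsonised cells alone, while Gclc stays near the floor throughout.

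In the thioredoxin arm the sulfiredoxin gene responded most. Srxn1 read 1458.4 and 1747.7 unstimulated and 12682.1 and 14226.5 with opsonised cells (log2 change 3.07 ± 0.12, 8.41-fold, limma adjusted p = 4.86e-15). The other 2 Srxn1 probes changed by 3.59 ± 0.11 and 2.76 ± 0.13, so all 3 moved the same way. Prdx1 rose from 23140.5 and 21353.1 to 27159.0 and 26868.2, a log2 change of 0.28 ± 0.08 (limma adjusted p = 0.0293). The groups do not overlap, but this probe lies at or above the 99.7th percentile on every array, where a ceiling could compress changes, and the call was lost without any 1 of the 4 arrays compared (adjusted p = 0.0518 to 0.235), with housekeeping centring (0.152), without the intensity trend (0.0812) and with values below the floor set to it (0.0555). No value of the brighter probe lies below the floor. In that last alternative its change stayed 0.28, and only limma's moderation and adjustment over all features differed. The second Prdx1 probe, at 190.0 and 236.1 unstimulated and 440.5 and 373.1 with opsonised cells, changed by 0.94 ± 0.13 (limma adjusted p = 8.97e-06). Txnrd1 went from 179.3 and 205.0 to 278.7 and 247.3 (0.45 ± 0.11, limma adjusted p = 0.00521), close to background. That call was lost without unstimulated replicate 1 (0.36, adjusted p = 0.111) and without opsonised replicate 1 (0.37, adjusted p = 0.0761). Txn1 itself read 406.9 and 305.9 unstimulated and 484.4 and 385.4 with opsonised cells, overlapping ranges, and did not pass the test (0.29 ± 0.16, 95% interval -0.04 to 0.62).

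Nqo1 rose from 204.4 and 210.5 to 344.6 and 300.9 (0.63 ± 0.11, 1.55-fold, limma adjusted p = 0.00026). Its unstimulated level was at the floor, so the fold is again understated. A second Nqo1 probe was above the floor on 0 arrays (means of 178.4 unstimulated and 186.4 with opsonised cells), so the rise rests on 1 probe. Nfe2l2, the gene of the regulator itself, read 513.9 and 402.5 unstimulated and 631.5 and 489.2 with opsonised cells. These ranges overlap, and the log2 change of 0.29 ± 0.14 did not pass (limma adjusted p = 0.205, 95% interval -0.00 to 0.58). The NRF2 transcript was thus bounded well under the increases of Slc7a11, Gclm and Srxn1 in the same cells. This too rests on 1 probe, since a second Nfe2l2 probe was above the floor on 0 arrays.

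Promoter sequences are shown for the 4 genes with the largest increases, because members that rise together can be compared for the motif that NRF2 is known to bind, and for Prdx1, chosen because its window holds a match. They are RefSeq windows of build GRCm38.p6, 250 bases before to 50 bases after an annotated start, and 8 of the 9 measured genes had at least 1 window (10 windows in all, with 3 for Txnrd1). Capitals mark matches, on either strand, to the antioxidant response element core TGACNNNGC or to its AP-1-like form TGANTCAGC, which was added after the sequences were seen.
Srxn1, chr2:152105274-152105573 (plus strand): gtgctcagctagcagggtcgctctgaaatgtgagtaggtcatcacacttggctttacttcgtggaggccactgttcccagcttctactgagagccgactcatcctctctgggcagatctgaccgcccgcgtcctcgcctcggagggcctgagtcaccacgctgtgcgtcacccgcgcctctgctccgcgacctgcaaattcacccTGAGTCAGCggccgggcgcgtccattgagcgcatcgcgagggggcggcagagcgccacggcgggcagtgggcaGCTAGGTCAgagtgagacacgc
Gclm, chr3:122245307-122245606 (plus strand): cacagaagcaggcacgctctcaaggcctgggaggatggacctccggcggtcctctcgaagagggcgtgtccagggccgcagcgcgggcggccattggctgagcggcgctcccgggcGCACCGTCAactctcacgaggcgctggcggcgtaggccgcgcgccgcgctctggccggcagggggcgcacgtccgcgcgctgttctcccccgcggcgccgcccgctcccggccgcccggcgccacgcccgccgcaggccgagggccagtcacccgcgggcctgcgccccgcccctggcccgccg
Slc7a11, chr3:50443564-50443863 (minus strand): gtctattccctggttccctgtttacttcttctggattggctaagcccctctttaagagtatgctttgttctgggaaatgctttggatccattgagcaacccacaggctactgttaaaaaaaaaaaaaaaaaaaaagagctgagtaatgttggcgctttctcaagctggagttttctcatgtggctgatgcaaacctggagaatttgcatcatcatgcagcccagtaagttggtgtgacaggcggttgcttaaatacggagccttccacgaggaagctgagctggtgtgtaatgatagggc
Nqo1, chr8:107403156-107403455 (minus strand): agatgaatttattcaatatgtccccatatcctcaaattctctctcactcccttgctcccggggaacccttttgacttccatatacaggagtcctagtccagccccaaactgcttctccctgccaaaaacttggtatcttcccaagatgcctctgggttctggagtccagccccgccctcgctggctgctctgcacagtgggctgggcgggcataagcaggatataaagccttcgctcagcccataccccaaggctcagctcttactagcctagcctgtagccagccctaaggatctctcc
Prdx1, chr4:116685349-116685648 (plus strand): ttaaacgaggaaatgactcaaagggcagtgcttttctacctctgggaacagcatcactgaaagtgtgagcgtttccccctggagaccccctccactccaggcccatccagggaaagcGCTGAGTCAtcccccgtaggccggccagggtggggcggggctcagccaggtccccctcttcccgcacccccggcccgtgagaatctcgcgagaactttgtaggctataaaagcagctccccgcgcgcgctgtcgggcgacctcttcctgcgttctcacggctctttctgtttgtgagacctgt
The Srxn1 window holds an AP-1-like element at position -45, counted from the start site, and a core on the other strand at position 29. The Gclm window holds 1 core at position -134 and the Prdx1 window 1 match at position -133, which fits both forms. The Slc7a11, Nqo1 and Txn1 windows hold neither, although Slc7a11 and Nqo1 rose, and Nfe2l2, which did not pass, holds a core at position -240. One of the Txnrd1 windows holds a core at position -92. The core was found in 5 of the 10 windows of these genes and in 12.4% of all 32851 windows, and the AP-1-like form in 2 of 10 and in 1.19%. Since the AP-1-like form was added after these windows were seen, its share in them is no independent excess. The plain AP-1 site TGANTCA, which overlaps the AP-1-like form, was in 2 of the 10 windows and in 7.81% of all. These matches describe letters in a window and are not evidence of binding.

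IFNγ alone lowered 2 of the 8 tested members and raised 1. Sulfiredoxin transcript fell 2.45-fold, the ligase modifier subunit 1.60-fold, and thioredoxin transcript was 1.42-fold higher. Over all tested features 23.2% were called (10% higher, 13.1% lower), and the median log2 change was -0.16 for the tested members and -0.05 for all features.

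Srxn1 went from 1458.4 and 1747.7 to 591.4 and 716.2, without overlap (log2 change -1.29 ± 0.12, 2.45-fold lower, limma adjusted p = 9.53e-09). Another Srxn1 probe gave -0.78 ± 0.11, and the dimmest, which was near the floor, gave -0.25 ± 0.13 and did not pass (limma adjusted p = 0.18 over all probes). Gclm fell from 997.4 and 1074.3 to 602.6 and 694.0 (-0.68 ± 0.12, 1.60-fold lower, limma adjusted p = 0.000152). Slc7a11 read 186.2 and 176.4 with IFNγ, below the floor on both arrays, and its log2 change of -0.24 ± 0.12 did not pass (limma adjusted p = 0.152). With normexp background correction it was -0.43 ± 0.15 and passed (limma adjusted p = 0.038). A decrease of Slc7a11 from its unstimulated level could hardly be measured, because that level was itself at background.

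Txn1 moved the other way, from 406.9 and 305.9 unstimulated to 438.7 and 573.2 with IFNγ (0.51 ± 0.16, 1.42-fold, limma adjusted p = 0.0218). The groups do not overlap, but the call was lost without unstimulated replicate 2 (0.30, adjusted p = 0.33), without IFNγ replicate 2 (0.31, adjusted p = 0.317) and over the mean of its probes (0.28, adjusted p = 0.119). It was also lost with values below the floor set to it (0.51, adjusted p = 0.112). No Txn1 value of the probe used lies below the floor, so only limma's moderation and adjustment over all features differed there. A second Txn1 probe, near the floor, changed by 0.06 ± 0.10, and the remaining probe was not above the floor. Prdx1 (-0.13 ± 0.08), Txnrd1 (0.12 ± 0.11), Nqo1 (0.01 ± 0.11) and Nfe2l2 (-0.19 ± 0.14) did not pass. Nqo1 read 210.8 and 207.7 with IFNγ against 204.4 and 210.5 without it, at the floor in each case. Nfe2l2 read 386.5 and 411.0 with IFNγ, overlapping its unstimulated arrays.

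When opsonised cells were added to IFNγ, 5 of the 8 tested members rose and 0 fell. The same arms led: sulfiredoxin and the ligase modifier subunit rose about 10-fold over IFNγ alone, and the cystine importer at least 4.52-fold. Over all tested features 15% were called (6.97% higher, 7.99% lower), and the members' median was 0.48 against -0.01. Comparisons with IFNγ alone and with opsonised cells alone share the arrays with both stimuli, so their values are given side by side and not correlated.

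Srxn1 rose from 591.4 and 716.2 to 6518.5 and 7234.8 (3.40 ± 0.12, 10.6-fold, limma adjusted p = 6.41e-16), beside 3.07 ± 0.12 for opsonised cells without IFNγ. Gclm rose from 602.6 and 694.0 to 5627.7 and 7302.7 (3.31 ± 0.12, 9.91-fold, limma adjusted p = 1.31e-15), beside 3.14 ± 0.12. Slc7a11 reached 970.9 and 883.9 with both stimuli, and because IFNγ alone left it below the floor the change is a bound of at least 4.52-fold (limma adjusted p = 7.5e-13). Prdx1 rose to 28880.7 and 28208.4 from 19982.0 and 20619.0 (0.49 ± 0.08, limma adjusted p = 0.000179), and its dim probe by 1.42 ± 0.13. Nqo1 rose to 284.4 and 246.1 (0.34 ± 0.11, limma adjusted p = 0.0396), a call lost without either unstimulated array, either IFNγ array or both-stimuli replicate 1 (adjusted p = 0.0536 to 0.27), with housekeeping centring (0.111), with no filter (0.0724) and with the other floor (0.0511). Txn1 missed the threshold (0.46 ± 0.16, limma adjusted p = 0.0526) and passed without either unstimulated array (0.0498 each), IFNγ replicate 2 (0.0293) or both-stimuli replicate 1 (0.0226). Txnrd1 (0.27 ± 0.11, limma adjusted p = 0.0932) and Nfe2l2 (-0.19 ± 0.14) did not pass.

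**Figure D2:**
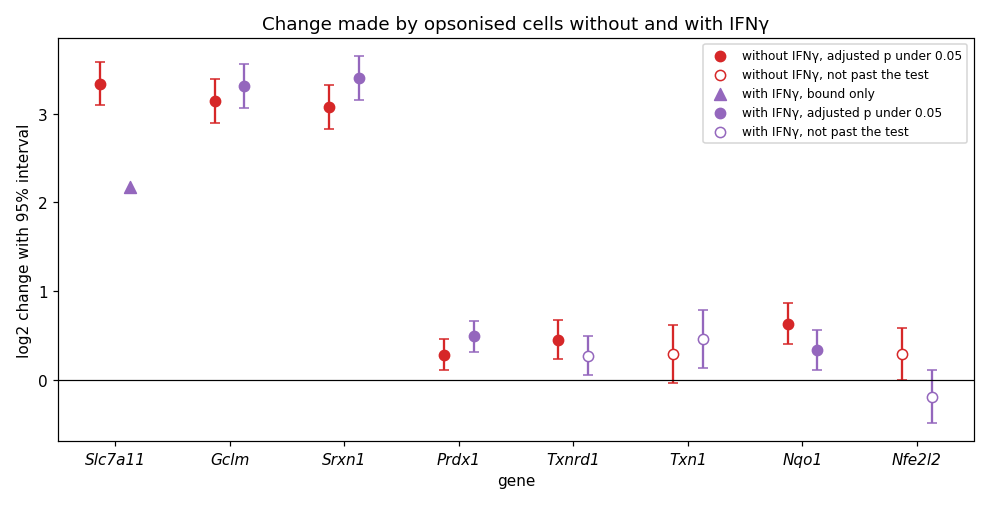
Log2 change made by opsonised cells for the 8 tested genes, without IFNγ (opsonised cells against unstimulated cells) and with it (both stimuli against IFNγ alone); bars are 95% intervals from limma, filled points passed an adjusted p of 0.05, and the triangle is a bound of at least 4.52-fold, drawn because Slc7a11 was below background with IFNγ alone. Gclm and Srxn1 lie between 3.07 and 3.40 in each comparison, Slc7a11 at 3.34 without IFNγ, and the other 5 genes below 0.7.

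Against unstimulated cells, both stimuli together left 7 of the 8 tested members higher and 1 lower, where 37.3% of all features were called (15.5% higher, 21.9% lower). Gclm stood 6.19-fold higher (2.63 ± 0.12), Slc7a11 4.32-fold (2.11 ± 0.12) and Srxn1 4.30-fold (2.10 ± 0.12). The unstimulated arrays of Slc7a11 lie at the floor, so its fold is understated and cannot be ranked against those of Gclm and Srxn1. Txn1 stood 1.96-fold higher (0.97 ± 0.16, limma adjusted p = 3.05e-05), its highest level of the 4 groups at 612.6 and 777.8. The second kept Txn1 probe, near the floor, changed by 0.095 ± 0.102 (limma adjusted p = 0.504 over all probes). The mean of the kept Txn1 probes rose by 0.53 ± 0.12. Txnrd1 (0.40 ± 0.11), Prdx1 (0.36 ± 0.08) and Nqo1 (0.35 ± 0.11) were higher by less, and Nfe2l2 was lower (-0.38 ± 0.14, limma adjusted p = 0.0389). The dim Prdx1 probe rose by 1.38 ± 0.13 (limma adjusted p = 2.12e-09 over all probes), and the mean of the Prdx1 probes by 0.87 ± 0.09. The small changes rest on few arrays. Without unstimulated replicate 1 the calls of Txnrd1 (adjusted p = 0.0961), Nqo1 (0.0851) and Nfe2l2 (0.404) were lost, without unstimulated replicate 2 that of Nqo1 (0.0527), and without both-stimuli replicate 1 those of Nqo1 (0.149) and Nfe2l2 (0.248). The Nfe2l2 call was also lost with cyclic loess (0.0824) and with values below the floor set to it (0.108). No Nfe2l2 value of the probe used lies below the floor, and its change stayed -0.38 in the latter. With arrays centred on housekeeping genes 5 members were called in place of 8.

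The level reached with opsonised cells was compared with and without IFNγ. With both stimuli, against opsonised cells alone, 4 of the 8 tested members were lower and 1 was higher: the cystine importer fell most, followed by sulfiredoxin, the Nfe2l2 transcript and the ligase modifier subunit, while thioredoxin transcript rose. Over all tested features 29.4% were called (12% higher, 17.4% lower), with a median of -0.40 for the tested members and -0.04 for all features. A share of 4 in 8 lower is thus to be read against a background in which decreases were common.

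Slc7a11 fell from 2137.1 and 2199.9 to 970.9 and 883.9 (-1.23 ± 0.12, 2.34-fold lower, limma adjusted p = 2.07e-08). All 4 arrays are well above background and the groups do not overlap. Srxn1 fell from 12682.1 and 14226.5 to 6518.5 and 7234.8 (-0.97 ± 0.12, 1.96-fold lower, limma adjusted p = 8.93e-07), and its other probes by 1.03 ± 0.11 and 0.69 ± 0.13. Gclm fell from 9245.3 and 9038.6 to 5627.7 and 7302.7 (-0.51 ± 0.12, 1.43-fold lower, limma adjusted p = 0.0022). The Gclm call was lost without both-stimuli replicate 1 (-0.32, adjusted p = 0.0965), the lower of its 2 arrays. Nfe2l2 fell from 631.5 and 489.2 to 323.3 and 378.3 (-0.67 ± 0.14, 1.59-fold lower, limma adjusted p = 0.000793), so the lowest Nfe2l2 array with opsonised cells is above the highest with both.

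Txn1 rose from 484.4 and 385.4 to 612.6 and 777.8 (0.68 ± 0.16, 1.60-fold, limma adjusted p = 0.00209), a call lost without opsonised replicate 2 (0.51, adjusted p = 0.0648). The second kept Txn1 probe, near the floor, changed by 0.04 ± 0.10 (limma adjusted p = 0.791 over all probes), and the mean of the kept Txn1 probes by 0.36 ± 0.12. Nqo1 went from 344.6 and 300.9 to 284.4 and 246.1, without overlap, but missed the threshold (-0.28 ± 0.11, limma adjusted p = 0.0557, 95% interval -0.51 to -0.06). It passed without opsonised replicate 2 (-0.38, adjusted p = 0.0389) and without both-stimuli replicate 1 (-0.39, adjusted p = 0.0272), and also with housekeeping centring (0.0309), over the mean of probes (0.0482) and with values below the floor set to it (0.0453). In the mean of probes and the floor alternative the Nqo1 change stayed -0.28. Nqo1 has 1 kept probe, and these arrays lie above the floor, so only limma's moderation and adjustment over all features differed. Prdx1 (0.08 ± 0.08, 95% interval -0.10 to 0.25) and Txnrd1 (-0.06 ± 0.11, 95% interval -0.28 to 0.16) did not pass. The dim Prdx1 probe was higher by 0.45 ± 0.13 (limma adjusted p = 0.01 over all probes), so the Prdx1 probes disagree here, and the cause was not tested.

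**Figure D3:**
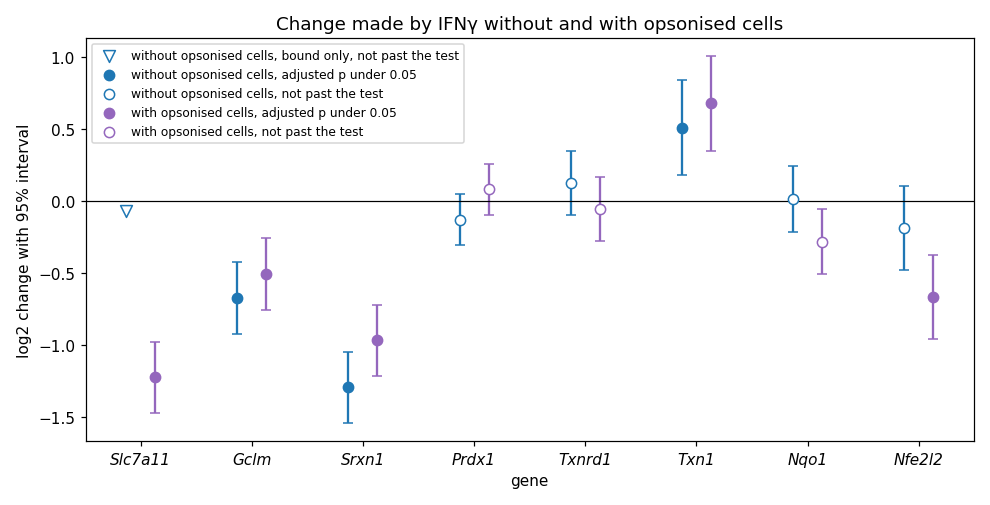
Log2 change made by IFNγ for the 8 tested genes, without opsonised cells (IFNγ against unstimulated cells) and with them (both stimuli against opsonised cells alone); bars are 95% intervals from limma and filled points passed an adjusted p of 0.05. The open triangle of Slc7a11 is only a bound, since it was below background with IFNγ alone, so its values in the 2 comparisons cannot be set against each other in the plot. The intervals of Gclm and Srxn1 overlap and lie below 0 in each case, and Txn1 lies above 0 in each case.

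Whether the IFNγ change itself differed between cells with and without opsonised cells was tested by the interaction, the IFNγ log2 change with opsonised cells minus that without. Of the 8 tested members 1 passed, where 2.6% of all features did (1.2% higher, 1.4% lower). Slc7a11 had an interaction of -0.98 ± 0.17 (limma adjusted p = 0.0011): IFNγ changed it by -1.23 with opsonised cells and by -0.24 without. The change without opsonised cells was measured at background, so a larger decrease there could not have been seen. With normexp background correction the interaction was -0.88 ± 0.21 (limma adjusted p = 0.0217). With values below the floor set to the floor, an alternative added after the data were seen, it was -1.16 ± 0.15 (limma adjusted p = 0.00973). That setting raises both Slc7a11 arrays with IFNγ alone to the floor. It thereby moves the change without opsonised cells towards 0, so it cannot test the limit set by background. For Gclm (0.17 ± 0.17, 95% interval -0.19 to 0.52) and Srxn1 (0.33 ± 0.17, 95% interval -0.02 to 0.68) no difference was shown, and the 3 Srxn1 probes disagreed in sign (0.33, -0.25 and -0.44, none past the test). Nfe2l2 (-0.48 ± 0.20, limma adjusted p = 0.251), Nqo1 (-0.30 ± 0.16), Txnrd1 (-0.18 ± 0.15), Prdx1 (0.21 ± 0.12) and Txn1 (0.17 ± 0.22) did not pass either.

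Other genes of the pathway were taken from lists of known function, and their counts are to be read against the all-feature shares: 6.38% higher and 6.56% lower with opsonised cells, 10% and 13.1% with IFNγ, and 12% and 17.4% for IFNγ added to opsonised cells. These lists too were chosen with earlier results of these data known, so a count above such a share is no independent excess. Of 13 other glutathione genes tested, 4 rose with opsonised cells and 0 fell. Esd, whose product S-formylglutathione hydrolase returns glutathione from formaldehyde adducts, rose by 1.49 ± 0.13, and Gss, the synthetase that completes glutathione, by 1.36 ± 0.12. Gss read 260.1 and 236.7 unstimulated, 257.5 and 235.9 after IFNγ, 652.2 and 620.9 after opsonised cells and 344.9 and 333.5 after both. The Gss arrays with IFNγ alone overlap the unstimulated ones (-0.01 ± 0.12), while IFNγ lowered the level with opsonised cells (-0.91 ± 0.12, limma adjusted p = 1.39e-06). IFNγ raised 3 of the 13 and lowered 3, beside 10% and 13.1% of all features. Ggct, whose enzyme acts on the breakdown products of glutathione, rose by 1.66 ± 0.12, and Chac1, which encodes a glutathione-degrading enzyme, by 1.30 ± 0.12. Added to opsonised cells, IFNγ raised 1 (Ggct, 2.10 ± 0.12) and lowered 4, among them Gss and Esd (-0.43 ± 0.13). Slc3a2, which encodes the heavy chain that carries xCT to the membrane, read near the floor in every group and did not pass in any comparison (0.13 ± 0.10 with opsonised cells, -0.04 ± 0.10 with IFNγ).

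**Figure D4:**
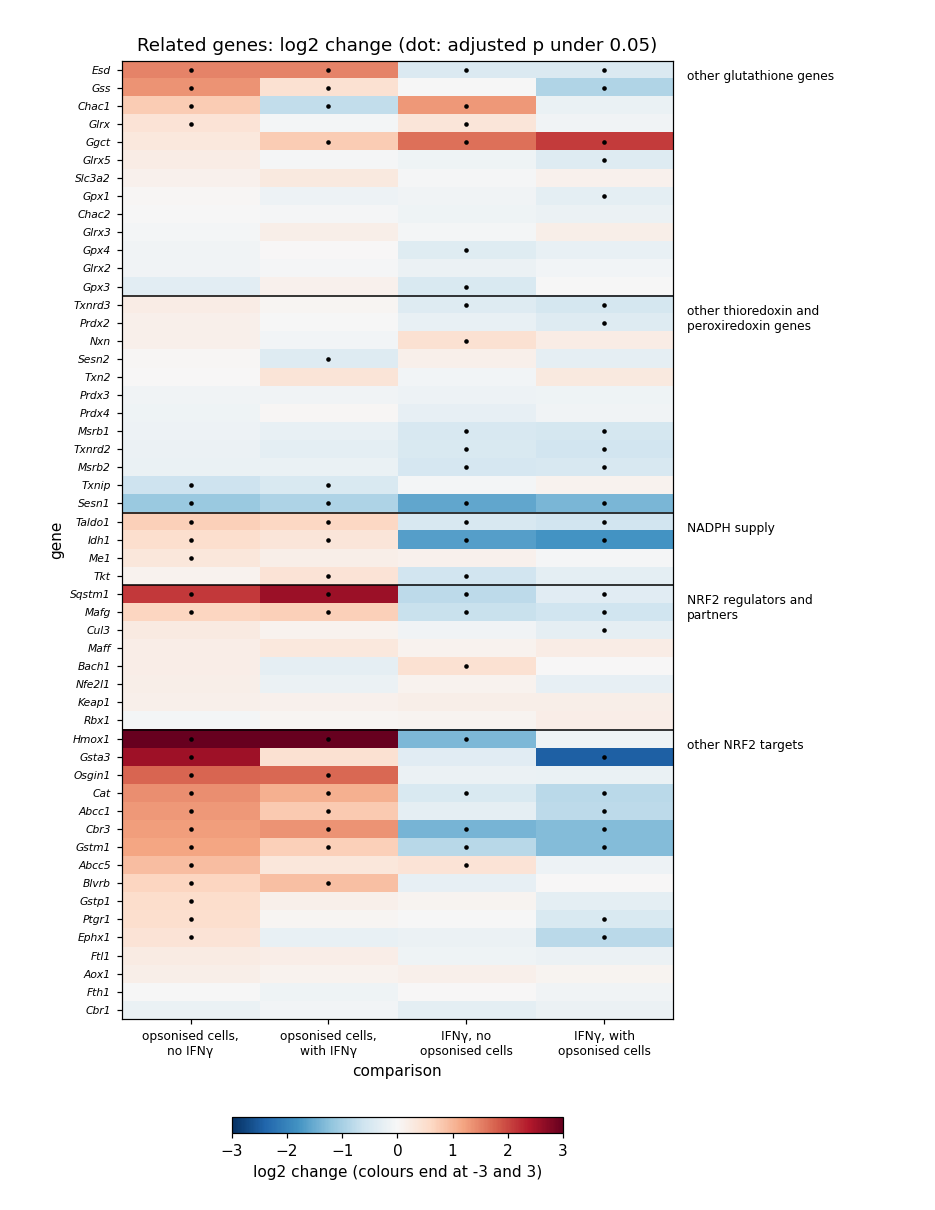
Log2 change of related genes in 4 comparisons, 1 row per gene, grouped by list and ordered within a list by the change with opsonised cells; red is higher, blue is lower, and a dot marks an adjusted p under 0.05. With opsonised cells 12 of 16 other NRF2 target genes and 3 of 4 NADPH-supply genes carry a dot on red, and no other thioredoxin or peroxiredoxin gene carries a dot on red with opsonised cells.

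Of 12 other thioredoxin and peroxiredoxin genes tested, 0 rose and 2 fell with opsonised cells: Txnip, the thioredoxin inhibitor gene, by 0.61 ± 0.10, and Sesn1, a sestrin gene, by 1.11 ± 0.11. IFNγ lowered 5 of the 12 and raised 1, beside 13.1% and 10% of all features, with Sesn1 at -1.55 ± 0.11 and the methionine sulfoxide reductase genes Msrb2 at -0.50 ± 0.13 and Msrb1 at -0.48 ± 0.13. Added to opsonised cells, IFNγ lowered 6 and raised 0, including the mitochondrial thioredoxin reductase gene Txnrd2 (-0.58 ± 0.12). Sesn2 was at 0.04 ± 0.10 with opsonised cells and 0.14 ± 0.10 with IFNγ, without a call.

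NADPH is consumed by both the glutathione and the thioredoxin reductases. The list for its supply held 6 genes, of which 4 had a probe, so the supply was covered only in part. Of these 4, all tested, 3 rose with opsonised cells and 0 fell. Taldo1 of the pentose phosphate pathway rose by 0.72 ± 0.09 and the isocitrate dehydrogenase gene Idh1 by 0.51 ± 0.11. The malic enzyme gene Me1 rose at least 1.11-fold (limma adjusted p = 0.0165). IFNγ lowered 3 of the 4 and raised 0: Idh1 (-1.65 ± 0.11), the transketolase gene Tkt (-0.58 ± 0.13) and Taldo1 (-0.47 ± 0.09). In the presence of opsonised cells it lowered 2, Idh1 (-1.79 ± 0.11) and Taldo1 (-0.57 ± 0.09).

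Of 8 NRF2 regulators and partners tested, 2 rose with opsonised cells and 0 fell: Sqstm1, which encodes the KEAP1-binding autophagy receptor p62 and is itself an NRF2 target, by 2.12 ± 0.10, and Mafg, which encodes a small MAF partner, by 0.65 ± 0.11. IFNγ lowered these same genes (Sqstm1 -0.78 ± 0.10, Mafg -0.66 ± 0.11) and raised Bach1, the gene of a repressor that competes for the same elements (0.47 ± 0.14, limma adjusted p = 0.0139). With opsonised cells present IFNγ lowered 3 and raised 0, Mafg by 0.59 ± 0.11, Sqstm1 by 0.35 ± 0.10 and the KEAP1-linked ligase gene Cul3 by 0.27 ± 0.10. Bach1 was then at 0.01 ± 0.14. Keap1 did not pass with IFNγ (0.18 ± 0.12) or opsonised cells (0.15 ± 0.12), but was higher with both stimuli against unstimulated cells (0.32 ± 0.12, limma adjusted p = 0.0335).

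Of 16 further NRF2 target genes tested, 12 rose with opsonised cells and 0 fell (median 0.79). They were led by the heme oxygenase gene Hmox1 (3.40 ± 0.10), the glutathione transferase gene Gsta3 (2.55 ± 0.16) and Osgin1 (1.74 ± 0.12). IFNγ alone lowered 4 and raised 1, with the carbonyl reductase gene Cbr3 at -1.40 ± 0.11 and Hmox1 at -1.34 ± 0.10. Added to opsonised cells it lowered 7 and raised 0. Gsta3 fell by 2.44 ± 0.16, Gstm1, another glutathione transferase gene, by 1.31 ± 0.12 and Cbr3 by 1.30 ± 0.11, whereas Hmox1 (-0.13 ± 0.10) and Osgin1 (-0.19 ± 0.12) did not pass. Hmox1 stood at 25350 with opsonised cells and 23120 with both, near the highest intensity on the arrays (35989), where a change could be compressed.

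Slc7a11, Chac1 and Slc3a2 are also targets of ATF4, the transcription factor of the amino acid response. Of 12 genes on an ATF4 list tested, which hold Chac1, Slc3a2 and Sesn2 but not Slc7a11, 8 rose with IFNγ and 0 fell (median 0.71), and 5 rose with opsonised cells and 0 fell (median 0.20). Chac1 (1.30 ± 0.12), Atf3 (1.04 ± 0.13) and the asparagine synthetase gene Asns (1.04 ± 0.12) led with IFNγ, where Slc7a11 was below the floor. Adding IFNγ to opsonised cells raised 1 of the 12 and lowered 0.

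The genes most like the members were sought among 685 named genes whose group means span at least 1 log2 unit, by Pearson correlation over the 8 arrays, which share groups, so the values describe and carry no test. Closest to the mean standardised level of the members were Ppfibp2 (r = 0.992), the chemokine genes Cxcl1 (0.978) and Cxcl2 (0.977), Plk2 (0.976), Nck2 (0.976), Ezr (0.974), Osgin1 (0.973) and Rmc1 (0.971). Ppfibp2 had mean intensities of 425 unstimulated, 361 after IFNγ, 1511 after opsonised cells and 1082 after both. Closest to Slc7a11 alone were Spic (0.997), the transcription factor gene of iron-recycling macrophages, Dnmt3l (0.993), Plpp3 (0.991), Cxcl2 (0.991) and H2-M2 (0.989). Spic stood at 193 unstimulated, 167 after IFNγ, 995 after opsonised cells and 512 after both. Among the members, Gclm (r = 0.977), Slc7a11 (0.974) and Srxn1 (0.953) lay closest to their common mean, and Txn1 (0.408) and Nfe2l2 (0.329) farthest from it. Each member is itself part of that mean, which raises its r, so these values cannot be set beside those of non-members.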

How the data were processed

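Total RNA of the 8 samples was labelled with biotin and hybridised to Illumina Mouse Ref-8 v2.0 arrays, per the labels. The values are the deposited intensity values of 25697 probes, which the authors exported from GenomeStudio (named in the submitters' processing notes). Its version and normalization setting are not given in the labels. The 8 columns share 1 distribution, within 0.96% at each rank, as quantile normalization gives, and the lowest value, 119.8, shows that background had not been subtracted, which understates folds of dim genes. A further deposited table was not used, because none of its 16 per-sample columns matches a sample's labels.

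Values were taken to log2. A probe was kept when it lay above the floor (the mode of the log2 values, raised by 1.64 SD of those below it, taken about the mode) on both arrays of at least 1 group: 11633 probes (45.3%). Annotation named 23978 probes with 1 symbol and 0 with several, left 1719 unnamed, and 0 symbols changed on matching 23962 Entrez identifiers to the reference table. Each gene was its brightest kept probe. limma 3.58.1 in R 4.3.3 fitted 4 group means over all 8 arrays (4 residual degrees of freedom, 22.5 after moderation with an intensity trend), with Benjamini-Hochberg adjustment within each comparison at 0.05. Adjusted p-values, standard errors and intervals are limma's. The fit was tested on simulated data. Where neither array of a group passed the floor, the change is a bound (at least N-fold) against the higher of floor and signal.

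Members and lists were chosen with earlier results of these data known. Chac1, Sesn2 and Slc3a2 are in 2 lists. By rule all members are named, and from other lists at most the 3 largest called changes per direction and comparison, plus Keap1, Bach1, Slc3a2, Gss, Hmox1, Txnip and Sesn2. Alternatives were normexp, cyclic loess, housekeeping centring, no filter, other uses of probes, no trend, a replicate block and leaving out each array; 2 treatments of the floor were added after the data were seen.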

Additional observations from a re-analysis of the deposited data

Results flagged for a closer look

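Of 70 genes tested on the lists used here, stimulus checks left out, 10 passed limma's interaction test (2 arrays per group), where 2.6% of all features did: the measured log2 change made by IFNγ differed between cells with and without opsonised cells. The lists were chosen with earlier results of these data known, so the count is no independent excess over that share. Among the members Slc7a11 passed, at -0.98 ± 0.17 (adjusted p = 0.0011), with a change of -1.23 with opsonised cells and -0.24 without them. IFNγ alone left Slc7a11 below background, so a larger fall there could not have been seen. Gss, the glutathione synthetase gene, had -0.90 ± 0.16 (adjusted p = 0.0021; -0.91 against -0.01), also from a low unstimulated level. The glutathione transferase gene Gsta3 had -2.09 ± 0.23 (adjusted p = 4.79e-06; -2.44 against -0.35). Gsta3 read 257.8 and 277.0 unstimulated and 215.8 and 204.0 with IFNγ, at the floor, so its change without opsonised cells is limited by background too.

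Hmox1 went the other way, at 1.21 ± 0.14 (adjusted p = 7e-06; -0.13 with opsonised cells, near the top of the scale, against -1.34). In 6 genes of the amino acid response the IFNγ change ran from 0.78 to 1.30 without opsonised cells and from -0.22 to 0.28 with them. The interaction was -1.50 ± 0.17 for Chac1 (adjusted p = 1.07e-05), -1.11 ± 0.17 for Asns (0.000315), -1.08 ± 0.18 for Mthfd2 (0.00085), -0.82 ± 0.17 for Atf4 (0.0088), -0.77 ± 0.18 for Atf3 (0.0183) and -0.66 ± 0.18 for Ddit3 (0.0452). No cause was tested for any of these.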

How the results depend on the processing

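Of 28 member changes called, 18 kept direction and call under every alternative run, among them all those of Slc7a11 and Srxn1 and all of Gclm but that of both stimuli against opsonised cells. With 1 array left out, the number of members called ranged from 2 to 3 with IFNγ (3 with all arrays), 4 to 6 with opsonised cells (6), 5 to 8 with both stimuli (8), 4 to 5 for both against IFNγ (5), 5 to 5 for both against opsonised cells (5) and 1 to 1 for the interaction (1). Housekeeping centring gave 5 in place of 8 with both stimuli. The direction of some uncalled changes turned, and the cause was not tested: Nqo1 with IFNγ (0.01) to -0.063 and Prdx1 for both against opsonised cells (0.08) to -0.004 under housekeeping centring, and Srxn1 interaction (0.33) to -0.12 over the mean of probes. With 1 array left out Nqo1 with IFNγ ranged from -0.008 to 0.034, the Txn1 interaction from -0.037 to 0.374, Txnrd1 for both against opsonised cells from -0.144 to 0.028 and the Gclm interaction from -0.021 to 0.355. Same-numbered arrays showed no shared deviation over all features (r of -0.04 to 0.04), which does not settle whether the numbers pair samples. A replicate block gave 3, 6, 8, 5, 5 and 1 members called in the same order. Over all features, calls with opsonised cells fell from 1146 to 688 and 675 without unstimulated replicate 1 or 2, those with IFNγ from 2052 to 1315 without IFNγ replicate 2, and those for both against IFNγ from 1325 to 727 and 811 without IFNγ replicate 1 or 2. Interaction calls fell from 230 to 137, 102, 104 and 125 without these 4 arrays, and to 96 with values below the floor set to it. Calls with IFNγ were 43.4% higher as deposited, 54.5% with cyclic loess and 32% with housekeeping centring; with both stimuli 41.4%, 51.4% and 29.2%; for both against opsonised cells 40.9%, 50.8% and 28.5%. Signal near background limits Slc7a11 without opsonised cells, Gclc, Txnrd1 and Nqo1, and the top of the scale limits Prdx1.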
